A study of Mus musculus with 8 samples.

Results

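The CpGs described here are those that lost methylation most steeply in bisulphite (BS) libraries of neural precursor cells (NPCs) when *Tet3* was knocked down. The CpGs were selected on their BS levels: a CpG was included when it lay on an autosome, was covered by 20 or more calls in each of the 4 BS libraries, had a mean level in the knockdown at least 35 percentage points below that of the control, and had both knockdown values below both control values. This held for 6285 of the 757812 CpGs listed, which is 1.26% of the 497953 autosomal CpGs with that coverage. Only CpGs with a control BS level of at least 35% could lose this much. There were 174321 of these, of which 3.61% met the rule, and the 168036 that did not are the comparison used throughout. A further 13 CpGs lost 35 points on average but failed on the order of the replicates. The mirrored rule, a gain of at least 35 points, was met by 2 CpGs.

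The NPCs came from mouse ES cells of the A2lox.cre line, in which an shRNA under a doxycycline-inducible promoter is placed by Cre recombination, and the shRNA was either non-targeting (shScr) or directed at *Tet3* (shTet3). For 5 days both groups received doxycycline (2 µg/ml). There were 2 replicates of each shRNA, each with a BS library and an oxidative bisulphite (oxBS) library of MspI-digested genomic DNA, which gives 8 libraries. The labels pair BS and oxBS libraries by replicate number, and the libraries of a pair are taken here to come from the same DNA. The number of ES cell clones behind each group, and whether replicates came from separate differentiations, is not given in the sources used here, so that the spread between replicates may be technical. *Tet3* RNA was not measured in these libraries. Depth ranged from 42516767 to 61865967 calls a library, and the median CpG had 43 to 54 calls.

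5-methylcytosine (5mC) is the methylated base found mainly at CpG sites in mammalian DNA, and TET3 is a dioxygenase that oxidises it to 5-hydroxymethylcytosine (5hmC) and further products. Bisulphite reads 5mC and 5hmC alike as C. In an oxBS library 5hmC is oxidised first and then reads as T, so that the C calls of an oxBS library count 5mC alone. A level is the percent of calls read as C over many cells, and partial methylation of all cells cannot be told apart from full methylation of some. The BS libraries chose the CpGs, and their values are given as a description. The oxBS libraries are separate libraries, taken to be from the same DNA. On that reading they measure the same loss again in the same cells but not in other cultures.

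The steep-loss CpGs were scattered. When CpGs at most 1000 bases apart were joined, they formed 5071 loci, of which 4148 held 1 CpG, 704 held 2 and 219 held 3 or more. The largest, in *Ston2*, held 7. Sequences of 7 of the 10 loci with the most steep-loss CpGs are shown, the first 7 in that order with ties taken by oxBS loss, because they hold the most losses within single loci. They are the forward strand of mm9, 5′ to 3′, with the steep-loss CpGs in capitals and other CpGs left in lower case, and for *Ston2* only the stretch with 4 of its 7 CpGs is printed.
*Ston2*, chr12:92886109-92886156: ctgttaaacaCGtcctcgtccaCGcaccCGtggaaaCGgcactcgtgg
near *Dok5*, chr2:170739825-170739925: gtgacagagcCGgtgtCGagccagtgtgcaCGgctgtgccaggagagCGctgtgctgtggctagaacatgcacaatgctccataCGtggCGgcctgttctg
*Syt9*, chr7:114647751-114647857: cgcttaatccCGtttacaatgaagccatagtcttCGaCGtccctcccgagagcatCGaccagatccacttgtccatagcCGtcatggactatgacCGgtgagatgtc
near *Agtpbp1*, chr13:59390806-59390880: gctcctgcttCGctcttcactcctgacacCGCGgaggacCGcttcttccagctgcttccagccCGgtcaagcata
near *Gm16484*, chr10:91244802-91244886: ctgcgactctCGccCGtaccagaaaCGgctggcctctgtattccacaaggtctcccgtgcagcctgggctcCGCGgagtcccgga
near *Ipmk*, chr10:71028397-71028551: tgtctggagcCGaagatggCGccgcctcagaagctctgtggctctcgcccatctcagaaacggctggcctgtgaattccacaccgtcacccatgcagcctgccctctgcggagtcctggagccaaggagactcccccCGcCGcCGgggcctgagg
near *Dapl1*, chr2:59245664-59245772: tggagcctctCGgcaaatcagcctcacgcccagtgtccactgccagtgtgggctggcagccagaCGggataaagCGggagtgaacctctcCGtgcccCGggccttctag
The *Ston2* and *Syt9* loci lay in coding exons and the other 5 between protein-coding genes. *Ston2* encodes an endocytic adaptor and *Syt9* a synaptotagmin of vesicle membranes.

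In the BS libraries, the shScr replicates had mean levels of 72.9% and 82.4% at the steep-loss CpGs, and the shTet3 replicates 36.2% and 40.6%. The median BS difference was −38.1 percentage points, the steepest was −63.1, and 67.7% of the CpGs had lost less than 40 points. These values follow from the rule. Just inside its limit, 1209 CpGs had lost 35 to 36 points, and just outside it 1429 had lost 34 to 35.

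The loss was smaller in the oxBS libraries. There the shScr replicates had mean levels of 62.0% and 76.5%, or 69.3% ± 10.2 (SD, n = 2). The shTet3 replicates had 47.8% and 46.8%, or 47.3% ± 0.702 (SD, n = 2). Both shTet3 libraries lay below both shScr libraries, with the shScr replicates further apart than the shTet3 replicates. Over the 6180 steep-loss CpGs with at least 10 calls in all 4 oxBS libraries, the median difference was −22.5 percentage points (middle 50% of CpGs −29.0 to −15.2, range −60.2 to 18.8). The other 105 had lower coverage and were not tested. At the CpGs that could have met the rule and did not, the median oxBS difference was −16.2, and over all 662455 CpGs tested it was −0.615.

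**Figure D1:**
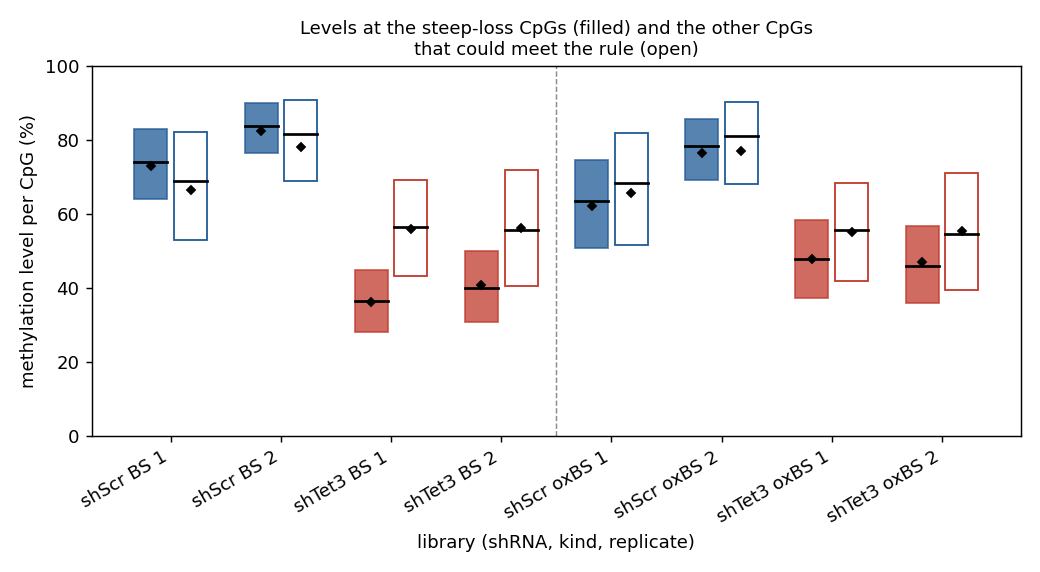
Methylation level per CpG (%) in each of the 8 libraries, for the steep-loss CpGs (filled) and the other CpGs that could meet the rule (open). Boxes span the middle 50% of CpGs, lines mark medians and diamonds means, blue is shScr and red is shTet3. The shTet3 means at the steep-loss CpGs are 36.2% and 40.6% in BS and 47.8% and 46.8% in oxBS, while the open boxes hardly move between BS and oxBS.

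Each CpG was then tested in the oxBS libraries by logistic regression of its C and T calls on the shRNA (likelihood ratio test, adjusted by Benjamini-Hochberg over all CpGs tested), and called when *q* was below 0.01 and the pooled levels differed by more than 10 points. Of the steep-loss CpGs tested, 3166 (51.2%) were called lower in shTet3 and 0 were called higher. The background of lower calls was 13.9% of all CpGs tested and 40.6% of the CpGs that could meet the rule and did not. Higher calls were rare everywhere, at 539 of all 662455 CpGs tested. They were made at 110 of the 166249 tested CpGs that could meet the rule and did not. Both shTet3 values lay below both shScr values at 4367 steep-loss CpGs (70.7%), against 26.3% of all CpGs tested and 60.4% of those that could and did not meet the rule. The difference was negative at 6058 steep-loss CpGs (98.0%) and at 94.7% of the others that could meet the rule. A loss of at least 35 points was measured again in oxBS at 658 steep-loss CpGs (10.6%), against 3.52%, whereas 790 (12.8%) lost less than 10 points or did not lose, against 26.7%.

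The number of calls rested on shScr replicate 2 and on a test that takes no account of the spread between replicates. Without shScr replicate 2, 18.4% of the steep-loss CpGs were called (5.90% of all CpGs tested), and without shTet3 replicate 2, 33.0% (9.97%). With an F test that includes overdispersion 0 were called, and with limma 0, and 0 CpGs of all those tested passed either test. At an unadjusted p under 0.05, 531 and 2222 steep-loss CpGs had a loss over 10 points. No such unadjusted count is given for the other CpGs, so no background stands beside these 2 numbers. Called CpGs had a median pooled difference of −28.3 and a median of 238 calls over the 4 oxBS libraries, and those not called had −14.7 and 172 calls. With 2 libraries against 2, the exact permutation test of a mean level cannot give a p below 0.33.

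The size of the BS loss told little of the oxBS loss within the steep-loss CpGs. The median oxBS difference was −22.3 at a BS loss of 35 to 40 points, −22.6 at 40 to 45, −22.9 at 45 to 50, and −23.1 at the 114 CpGs tested with 50 or more. Below the limit it changed more, from −10.1 at CpGs without a BS loss to −20.9 at a loss of 30 to 35 points. The share called ran from 19.4% to 51.4% over the same range and then between 48.0% and 52.2% above the limit. Across steep-loss CpGs, the BS and oxBS differences had a correlation of r = 0.045, and across all CpGs that could meet the rule r = 0.285. These are descriptions across CpGs, which share libraries and, where they lie on the same fragment, reads.

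**Figure D2:**
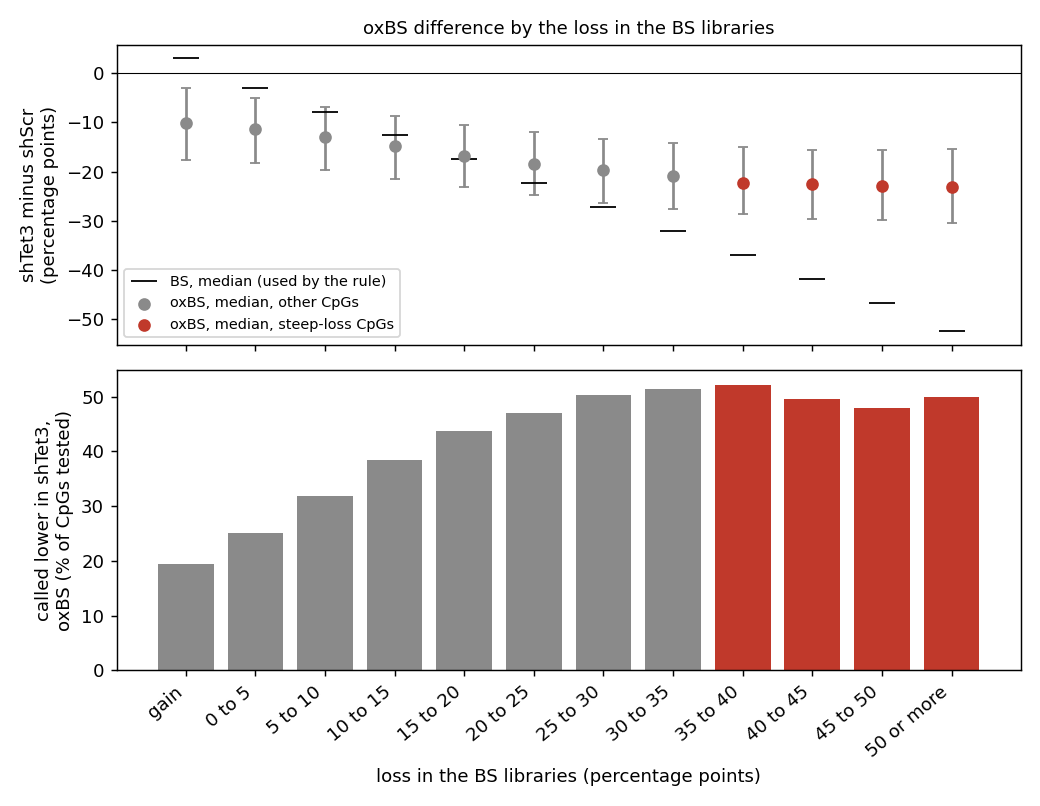
Difference between shTet3 and shScr (percentage points, upper panel: points are oxBS medians with bars over the middle 50% of CpGs, dashes are BS medians) and share of CpGs called lower in oxBS (%, lower panel) by the loss in the BS libraries, for CpGs that could meet the rule and were tested in oxBS. Steep-loss CpGs are red; their oxBS medians stay between −22.3 and −23.1 while the BS medians run from −36.9 to −52.4.

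The nearest CpGs outside the limit behaved much like those inside. At a BS loss of 34 to 35 points the median oxBS difference was −21.2 and 50.9% were called, and at 35 to 36 points the values were −21.9 and 52.4%. The same rule applied to the oxBS libraries picked mostly other CpGs. Among CpGs covered 20 or more times in all 8 libraries, 5305 met the rule in BS, 5338 met it in oxBS, and 535 met both, which is 10.1% of the first set and 10% of the second. Of the CpGs that could meet the BS rule and did not, 3.15% met the oxBS rule. At the CpGs of the oxBS rule the median BS difference was −22.3, close to the oxBS median of −22.5 at the CpGs of the BS rule.

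BS minus oxBS at the steep-loss CpGs was positive in shScr and negative in shTet3. In shScr it was 10.9 and 5.91 percentage points in the replicates, 8.39 ± 3.5 (SD, n = 2). In shTet3 it was −11.5 and −6.16 points, −8.84 ± 3.79 (SD, n = 2). At the other CpGs that could meet the rule it was 0.828 ± 0.0116 in shScr and 0.974 ± 0.0368 in shTet3 (SD, n = 2). A BS level below the oxBS level cannot come from 5hmC. The BS values that chose the CpGs enter this difference, which the choice raises in shScr and lowers in shTet3, so no 5hmC level was read from it.

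Coverage moved with membership. The median of the lowest coverage among the 4 BS libraries was 32 calls at steep-loss CpGs and 41 at the others that could meet the rule. Of the CpGs that could meet the rule, 6.08% did so at a lowest coverage of 20 to 24 calls and 1.57% at 60 or more. For scale, 16 methylated calls of 32 have a 95% Wilson interval from 33.6% to 66.4%. Replicates of the same group were also 35 or more points apart at some CpGs that could meet the rule: at 7.36% in shScr BS, 2.19% in shTet3 BS, 8.66% in shScr oxBS and 2.00% in shTet3 oxBS. The oxBS difference depended little on this coverage, with medians between −21.4 and −23.5 at steep-loss CpGs and between −15.9 and −16.5 at the others. The share called rose with coverage, from 36.7% to 78.6% at steep-loss CpGs and from 25.8% to 55% at the others. The part of coverage in the choice of CpGs was not tested. The intervals cover counting error only, since reads copied by PCR without molecular identifiers are not independent molecules.

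**Figure D3:**
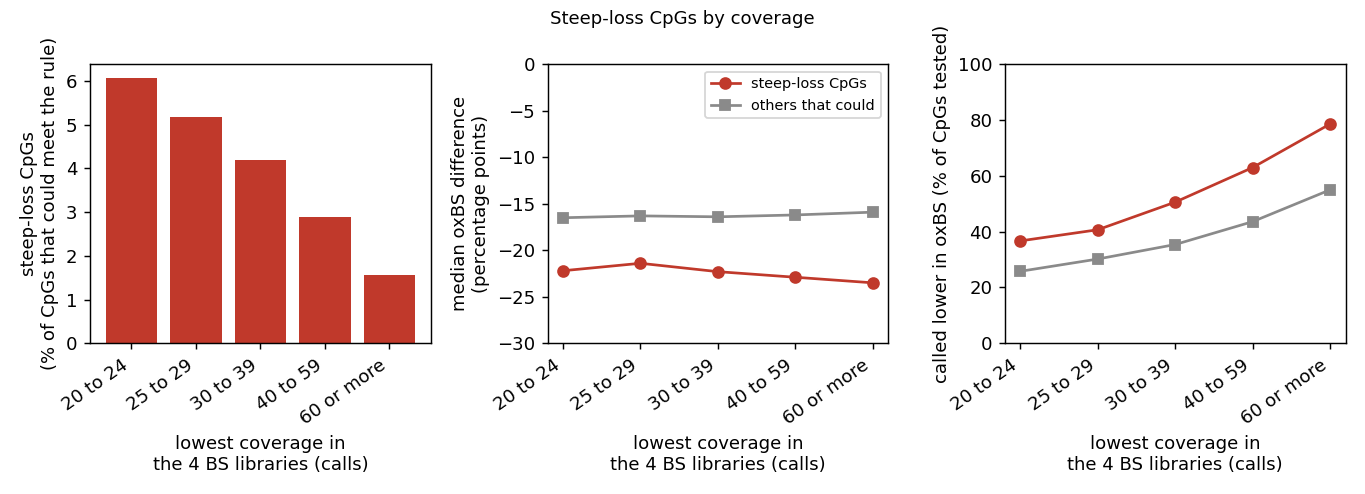
Steep-loss CpGs by the lowest coverage among the 4 BS libraries (calls): their share of the CpGs that could meet the rule (left), the median oxBS difference (middle) and the share called lower in oxBS (right), red for steep-loss CpGs and grey for the others that could. The share falls from 6.08% to 1.57%, the medians stay near −22 and −16, and the shares called rise to 78.6% and 55%.

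Most steep-loss CpGs started from a high level and ended at an intermediate level. The mean shScr BS level was 60% to 80% at 3260 of them and 80% or more at 2719. By that level, the share of CpGs that met the rule was 0.169% at 35% to 50%, 5.69% at 70% to 80% and 2.88% at 90% to 100%. The shScr BS values took part in the choice of CpGs, which raises them. In the oxBS libraries, the shScr mean was 60% to 80% at 3563 steep-loss CpGs (56.7%) and 80% or more at 1341 (21.3%). It was between 20% and 60% at 1374 (21.9%). The shTet3 oxBS mean was between 20% and 60% at 5176 (82.4%) and below 10% at 3. At a shScr BS level of 90% to 100% the oxBS medians of steep-loss CpGs and of the others were furthest apart, at −20.7 and −11.7. At 50% to 60% they were −19.7 and −17.2, and at 60% to 70% −22.4 and −19.1. At 70% to 80% they were −23.4 and −19.0, and at 80% to 90% −22.5 and −16.1. The shares called in these last 3 bins were 48.5%, 53.8% and 52.6% of steep-loss CpGs, against 44.8%, 47.8% and 44.0% of the others. At 90% to 100% they were 48.7% and 34.2%.

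CpGs beside the steep-loss CpGs were lower in shTet3 by slightly more than the other CpGs that could meet the rule. Within 100 bases of them, 12996 other CpGs were tested in oxBS, with a median difference of −18.8 in oxBS and −22.7 in BS, and 43.7% were called. The 10669 of these that could meet the rule had an oxBS median of −19.4 and 48.7% were called, against −16.2 and 40.6% over all CpGs that could and did not meet it. Steep-loss CpGs in loci of 3 or more had an oxBS median of −23.7 with 55.8% called, and those alone −22.2 with 50.2%. Of the 219 loci with 3 or more, the mean oxBS difference ran from −43.9 to −4.73, and 206 lost over 10 points. Loci of other CpGs were not formed, so no background stands beside this count.

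At the *Ston2* locus (7 CpGs, chr12:92885873-92886477, a coding exon inside a predicted CpG island), the mean oxBS level was 88.9% and 93.1% with shScr against 63.9% and 57.3% with shTet3. The groups did not overlap, the difference was −30.4 points, and 5 of the 7 CpGs were called. The other 22 CpGs listed within this locus had a mean oxBS difference of −18.1. Near *Dok5*, which encodes an adaptor of receptor tyrosine kinases (6 CpGs, chr2:170739835-170739915), the oxBS levels were 71.3% and 71.1% with shScr against 39.8% and 36.3% with shTet3. Here the replicates were within 4 points of each other, the difference was −33.2, and 5 of 6 were called. At *Syt9* (6 CpGs, chr7:114647761-114647847, coding exon), the levels were 62.9% and 72.4% against 37.6% and 44.6%, a difference of −26.6 with 5 of 6 called. Near *Agtpbp1*, which encodes a carboxypeptidase that shortens the glutamate chains of tubulin (5 CpGs, chr13:59390816-59390870), they were 66.6% and 73.2% against 28.6% and 39.0%, the deepest loss of the 10 loci at −36.1, and all 5 were called. The nearest protein-coding start to this locus was 243709 bases away.

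The loci near *Gm16484* (chr10:91244812-91244876) and *Ipmk* (chr10:71028407-71028541) had oxBS differences of −30.7 and −30.5, with 5 of 5 and 3 of 5 CpGs called. Near *Dapl1* (chr2:59245674-59245762) the difference was −30.5, but the shTet3 oxBS replicates were 59.9% and 30.4%, and it was −15.8 without shTet3 replicate 2. Near *Refbp2* (chr1:173415873-173415932) the shTet3 replicates were 31.2% and 59.0%, 2 of 5 CpGs were called, and the difference of −26.4 became −12.5 without shTet3 replicate 1 and −40.3 without replicate 2. The loci near *Mkx*, a homeobox gene, and *1700047G07Rik* had differences of −28.8 and −23.5. Of the 12 loci with 5 CpGs, the 7 named were those with the largest mean oxBS loss. The other 5 had differences from −23.2 to −17.2, and 11 of their 25 CpGs were called. Of all steep-loss CpGs tested 51.2% were called, and of the others that could meet the rule 40.6%. Over all 15 loci with 5 or more CpGs, both shTet3 oxBS means lay below both shScr oxBS means at 14. Over the 219 with 3 or more they did so at 189. No such share was counted for loci of other CpGs. Among single CpGs that could meet the rule and did not, 60.4% had this order. CpGs of a locus are read on the same fragments and are not replicates of each other.

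**Figure D4:**
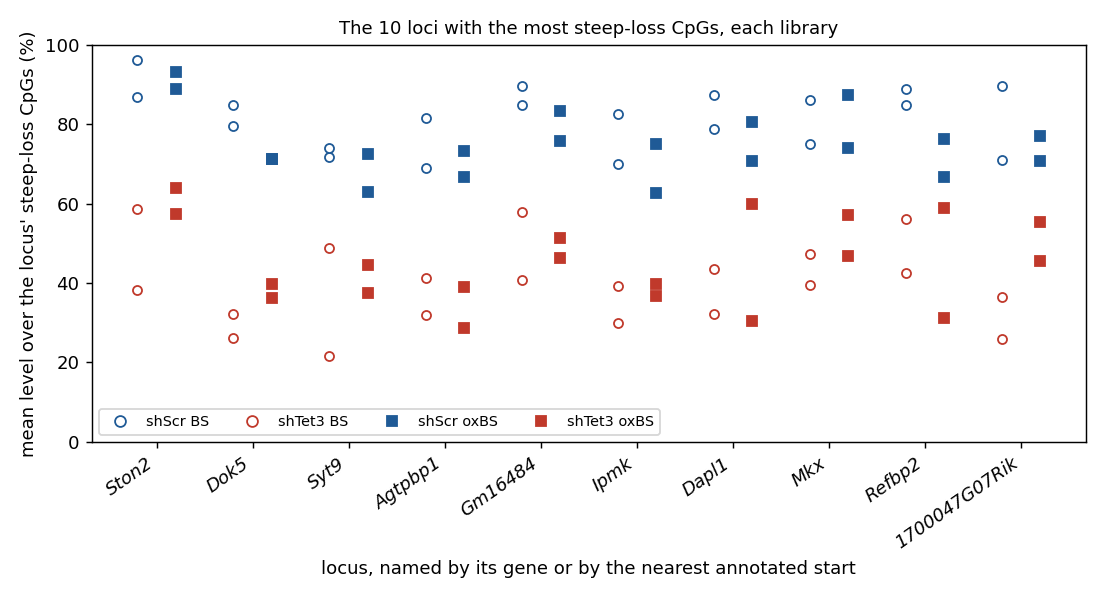
Mean level (%) over the steep-loss CpGs of each of the 10 loci with the most of them (ties by oxBS loss), 1 point per library: open circles BS, filled squares oxBS, blue shScr, red shTet3. The red squares lie below the blue squares at each locus, by 23.5 points on average at *1700047G07Rik* and 36.1 near *Agtpbp1*.

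Single CpGs differed widely in how far the loss was measured again. The following windows of 62 bases are the forward strand of mm9, with the steep-loss CpG in capitals, for 4 of the 10 CpGs with the largest oxBS loss at a coverage of at least 20 and for 2 CpGs at which oxBS moved the other way.
near *Gm10566*, chr1:15086064-15086125: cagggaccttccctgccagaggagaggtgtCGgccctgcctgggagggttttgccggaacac
*Hhat*, chr1:194561927-194561988: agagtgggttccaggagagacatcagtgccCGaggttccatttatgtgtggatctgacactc
*Krt13*, chr11:99980197-99980258: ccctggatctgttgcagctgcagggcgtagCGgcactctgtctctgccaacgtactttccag
near *Lmo7*, chr14:102363077-102363138: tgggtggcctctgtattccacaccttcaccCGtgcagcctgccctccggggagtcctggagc
*Klf3*, chr5:65213345-65213406: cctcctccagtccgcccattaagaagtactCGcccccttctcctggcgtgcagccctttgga
near *Usp29*, chr7:6813586-6813647: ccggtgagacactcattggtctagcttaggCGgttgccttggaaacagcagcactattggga
The largest loss was measured at chr1:15086094, 173784 bases from the start of *Gm10566*, where the oxBS levels were 65.6% and 89.2% with shScr against 16.2% and 18.2% with shTet3, at 32 to 37 calls per library. The difference was −60.2 points and *q* was 3.6e-11. In an intron of *Hhat*, which encodes the acyltransferase of Hedgehog proteins (chr1:194561957), the levels were 67.9% and 70% against 14.3% and 14.3% (20 to 28 calls), a difference of −54.6 with *q* = 3e-06. In a coding exon of the keratin gene *Krt13* (chr11:99980227), they were 89.2% and 85.1% against 25.8% and 39.7% (47 to 93 calls), a difference of −54.5 with *q* = 3.9e-18. At the repeated sequence near *Lmo7* (chr14:102363107), they were 64.3% and 67.6% against 7.32% and 18.8%, a difference of −52.9 with *q* = 7.1e-10. The other 6 lay near *Pfdn4*, *Kcns3*, *Zcwpw2*, *Hlx* and *8030423J24Rik* and in an intron of *Spire2*, with differences from −56.0 to −53.0. At all 10, both shTet3 values lay below both shScr values. These CpGs were picked for their oxBS loss, so that their size is a description.

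The steepest BS loss of all, −63.1 points at chr5:119623532, 497146 bases from the start of the T-box gene *Tbx3*, was not measured again. Its oxBS levels were 11.1% and 67.3% with shScr against 47.9% and 27.8% with shTet3, at 36 to 52 calls, a difference of −1.36 with *q* = 1.0. The shScr replicates there were further apart than the groups. The second steepest, −62.6 near *Akr1c12* (chr13:4328561), had oxBS levels of 50% and 86.3% against 33.3% and 37.8%, a difference of −32.6 with *q* = 1.2e-05. The third, −62.2 in the *Dok5* locus shown above, had 73.8% and 78.3% against 45.9% and 35%, a difference of −35.5 with *q* = 0.00012.

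At 10 of the steep-loss CpGs tested (0.162%), both shTet3 oxBS values lay above both shScr oxBS values, against 2.04% of all CpGs tested and 0.499% of the others that could meet the rule. The same order held at 3 of the 105 not tested for low coverage. In a coding exon of *Klf3*, which encodes a Krüppel-like repressor (chr5:65213375), the BS levels were 92.3% and 100.0% with shScr against 27.3% and 90.5% with shTet3, and the oxBS levels were 71.9% and 71.4% against 88.2% and 92.6%. In BS only shTet3 replicate 1 lay far below shScr there, and the oxBS difference of 18.8 had *q* = 0.063. At chr7:6813616, 100255 bases upstream of the imprinted gene *Usp29*, BS levels of 50% and 50% stood against 4.55% and 25%, and oxBS levels of 0.0% and 20%, at 10 calls each, against 27.3% and 21.4%. The shScr BS and oxBS values at this CpG differed by more than the shRNA groups did in oxBS.

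The steep-loss CpGs lay further from genes than the other CpGs that could meet the rule. They were in promoters (−1 kb to +0.5 kb of protein-coding transcripts) in 3.99% of cases (95% Wilson interval 3.54 to 4.51) against 7.22%, in predicted CpG islands in 3.82% (3.37 to 4.32) against 11.4%, and in coding exons in 13.6% (12.7 to 14.4) against 23.8%. Introns held 32.6% against 33.1%. Sequence between protein-coding genes held 51.4% (50.2 to 52.6) against 38.4%, and 24.6% lay over 100 kb from a protein-coding start against 14.1%. The median distance to such a start was 31973 bases against 16330.5, and 9 against 13 protein-coding genes began within 500 kb. The GC content within 100 bases had a median of 53.0% against 55%. The intervals take each CpG as independent, which CpGs of the same fragment are not.

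**Figure D5:**
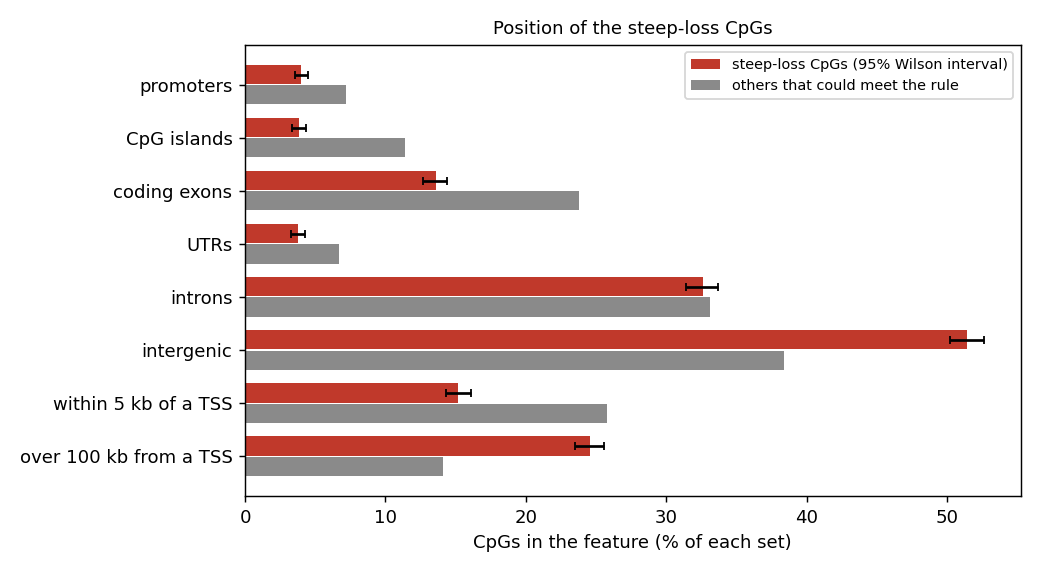
Share of CpGs (%) in each annotated feature for the steep-loss CpGs (red, with 95% Wilson intervals) and the other CpGs that could meet the rule (grey). TSS is the start of a protein-coding transcript. Intergenic CpGs are 51.4% against 38.4%, and CpG island CpGs 3.82% against 11.4%.

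The oxBS loss varied less between features at the steep-loss CpGs than at the others. Its median was −22.3 in promoters, −19.1 in CpG islands, −21.4 in coding exons, −22.4 in introns and −22.7 between genes. At the other CpGs it ran from −11.1 in CpG islands to −17.8 between genes. The share called was 48.3% in promoters and 38.4% in CpG islands, against 30.2% and 24.0% at the others. The share of CpGs that met the rule ran from 1.68% on chromosome 11 to 4.73% on chromosome 13. On chromosome 11 the oxBS median of the steep-loss CpGs was also the smallest, −18.9, and it was largest on chromosome 14, at −25.8. At the others the median was smallest on chromosome 11 as well, −14.2, and was −17.1 on chromosome 14. A or T stood on both sides of the CpG at 13.3% of steep-loss CpGs and 12.3% of the others. G or C did so at 53.1% and 53.4%. The MspI site, at which the DNA was cut, differed more. It held 41.0% of steep-loss CpGs (interval 39.8 to 42.2) and 35.8% of the others. The part of this site in the choice of CpGs was not tested. No other CpG lay within 35 bases at 21.0% against 17.4%.

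Some of the loci shown above are repeated in the genome. The 31 bases centred on the CpG occurred once in mm9 for 5752 steep-loss CpGs (91.5%, against 94.5% of the others that could meet the rule) and at least 10 times, on either strand, for 271 (4.31% against 2.61%). Of the CpGs with at least 10 copies 5.82% met the rule, and of those with 1 copy 3.5%. The oxBS medians of the steep-loss CpGs were −23.6 and −22.4, with 53.4% and 51.2% called. Near *Gm16484*, 3 of the 5 CpGs had more than 1 copy, up to 51, near *Ipmk* 2 of 5, up to 362, near *Mkx* 3 of 5, up to 123, and near *Refbp2* 1 of 5, with 4. The CpG near *Lmo7* had 49 copies and that near *Akr1c12* 10. Their values can hold calls from other copies that differ outside the 31 bases, and this was not tested. The 14 bases found most often within 50 bases of steep-loss CpGs, on either strand, were CTCTGTATTCCACA. They stood beside 62 steep-loss CpGs (0.986%) on 16 chromosomes and beside 840 of the others (0.5%), including the *Gm16484* locus and the CpG near *Lmo7*. The median oxBS difference of the 61 tested was −25, against −19.1 at the others with these letters. The letters were picked for their number, so this is a description.

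The promoters of 207 protein-coding genes held a steep-loss CpG, 48 of them at least 2 and 4 at least 3. *Spata13*, which encodes a guanine nucleotide exchange factor, held 4 (chr14:61310328-61310546), with oxBS means of 49.1% and 71.2% with shScr against 44.3% and 33.8% with shTet3, and 2 were called. The difference was −21.1, and −17.4 over all 55 tested CpGs of its promoters. At *Hoxd3*, a homeobox gene, 3 CpGs had 69.9% and 44.1% against 38.9% and 34.6%, a difference of −20.2 with 2 called. *Skor2*, which encodes a SKI family corepressor, also held 3, with 76.2% and 73.6% against 56.3% and 31.1%, a difference of −31.2 with 1 called. *Rab40b*, which encodes a small GTPase, held 3 with 0 called. Its levels were 46.0% and 69.8% against 51.2% and 49.2%, so that the groups overlapped, and all 13 tested CpGs of its promoters had a mean difference of −0.481.

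The next 6 genes, with 2 CpGs each, were *Srbd1*, *Sdr16c5*, *Usp20*, *Ghrh*, *Tnfsf15* and *Tmem63c*, taken from 44 genes with exactly 2 because their mean oxBS loss was largest, so that their values are a description. Of the 44, 9 had both CpGs called, 22 had 1 and 13 had 0. For comparison, 48.3% of the single steep-loss CpGs tested in promoters were called, and 30.2% of the others in promoters that could meet the rule. CpGs shared by promoters, as those of *Ckm* and *Gm17405*, were counted for each gene. At *Slc6a5*, *4921515J06Rik* and *Gm9857* 1 of the 2 CpGs was tested. The mean oxBS difference of the 44 ran from −41.5 to −7.42 with a median of −22.5. At *Ghrh*, which encodes the growth hormone-releasing hormone, the levels were 50.1% and 83.6% against 26.7% and 38.2%, a difference of −34.4, and −29.2 over its 4 tested CpGs. At *Usp20*, which encodes a deubiquitinase, the difference of −36.7 at the 2 CpGs stood beside −2.39 over all 41 tested CpGs of its promoters. The means over all tested promoter CpGs, here and at the genes above, were not limited to CpGs that could meet the rule. They also hold CpGs with little methylation to lose, and the steep-loss CpGs themselves.

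Genes of 5 lists were examined, each as the genes with a steep-loss CpG in the gene or its promoter. Each share is read beside the 3.61% of CpGs that met the rule among all that could. Of 43 neural progenitor and neurogenesis genes with a CpG that could meet the rule, 13 held 22 steep-loss CpGs (3.91% of those that could), and 8 of the 22 were called in oxBS (36.4%, against 51.2% of all steep-loss CpGs tested and 40.6% of the others that could meet the rule). *Ntrk2*, the BDNF receptor, held 3 intronic CpGs with oxBS means of 66.3% and 74.0% with shScr against 48.2% and 37.5% with shTet3, a difference of −27.3 with 2 called. *Fgfr1*, an FGF receptor, held 3 with 59.8% and 66.8% against 25.9% and 54.2%, a difference of −23.2 with 1 called. *Gli2*, a transcription factor of Hedgehog signalling, held 3 with 51.3% and 77.0% against 49.5% and 42.6%, a difference of −18.1 with 1 called. *Notch1* held 2 in an intron (chr2:26343267-26343284), with 77.0% and 87.9% against 51.1% and 51.7%, a difference of −31.0 with both called. *Runx1*, a transcription factor gene, held 2 with 79.2% and 88.5% against 63.8% and 57.7%, a difference of −23.1 with 1 called. *Lhx2*, a LIM homeobox gene, held 2 with 60.5% and 30.9% against 39.7% and 29.6%, a difference of −11.1. The groups overlapped there and 0 were called. The other CpGs of these genes that could meet the rule had differences of −21.0 at *Ntrk2*, −22.0 at *Fgfr1* and −21.4 at *Gli2*. At *Notch1*, *Runx1* and *Lhx2* they were −14.7, −11.8 and −7.79.

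Of 40 axon guidance genes with a CpG that could meet the rule, 10 held 17 steep-loss CpGs (1.97%), and 8 were called (47.1%). *Sema3f*, a secreted semaphorin, held 3 with 64.8% and 85.0% against 55% and 44.0%, a difference of −25.4 with 2 called. *Unc5a*, a netrin receptor, held 2 with 63.5% and 89.8% against 45.6% and 48.4%, a difference of −29.6 with both called. *Slit1*, which encodes a secreted guidance ligand, held 2 with 56.3% and 76.6% against 49.8% and 41.7%, a difference of −20.7 with 1 called. *Ntn1*, *Plxna4* and *Slit3* held 2 each with 0 called, and differences of −18.1, −13.6 and −6.42. The other CpGs of these genes that could meet the rule had −20.7 at *Sema3f*, −20.3 at *Unc5a* and −17.6 at *Ntn1*. At *Slit1*, *Plxna4* and *Slit3* they had −17.2, −16.9 and −17.5.

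Pluripotency genes held few. Of 20 with a CpG that could meet the rule, *Prdm14*, *Lifr* and *Stat3* held 1 each (1.5%), and the 1 called lay in an intron of *Prdm14*, with 81.9% and 86.8% against 64.0% and 53.6%. Of 15 genes of the DNA methylation machinery, *Dnmt1*, which encodes the maintenance methyltransferase, held 1 (0.498%), in an intron (chr9:20728776). Its oxBS levels were 81.4% and 87.2% against 30% and 50.8%, a difference of −43.9, and it was called. The gene's other CpGs that could meet the rule had −13.6. Of 25 imprinted genes, 2 held 8 (2.29%). *Kcnq1*, a potassium channel gene whose introns host an imprinting control region, held 7 between chr7:150345712 and chr7:150587178, with mean oxBS levels of 67.6% and 74.8% against 48.0% and 37.7%. The difference was −28.3 with 5 of 7 called, and −17.1 at its other CpGs that could meet the rule. *Dlk1* held 1, with 80.6% and 77.1% against 77.1% and 62.0%, a difference of −9.29 that was not called. Its other CpGs that could meet the rule had −11.3.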

How the data were processed

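Methylation was measured by oxRRBS in 8 libraries: BS and oxBS, shScr and shTet3, with 2 replicates each. Per the methods, the authors trimmed reads with Trim Galore, aligned them with Bismark to mm9 and extracted calls (versions not given in the sources used here). For each CpG they deposited the coverage, a count of calls that was not normalized, and the percent of those calls that were C or T. All libraries listed the same CpGs, with a coverage of at least 5, and replicates were not pooled. Methylated calls were recovered as percent times coverage. Samples were grouped by their labels.

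The CpGs were chosen by the BS rule given above. The CpGs, gene lists and tests were chosen with earlier results of these data known. The oxBS test was a logistic likelihood ratio test without overdispersion (Python 3.11.15, numpy 2.4.6, scipy 1.17.1). It was tested on simulated counts that held no spread between replicates, which cannot show how it fares where replicates differ. CpGs covered 10 or more times in each oxBS library entered. Genes were those of GENCODE vM1, without 3 protein-coding models of over 500 kb that each held at least 3 other whole protein-coding genes (in *Arfip1*, *Fgfr2* and *Gm20388*). CpG islands were predicted from mm9 in windows of 500 bases (GC at least 55%, observed over expected CpG at least 0.65). Genes between which a CpG lies are named by the nearest protein-coding start.

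Alternatives were other coverage minimums and BS losses, an F test with overdispersion, limma 3.58.1 (R 4.3.3) on log2 ratios, Fisher's exact test on pooled counts, a replicate block, other feature definitions, and leaving out each replicate. The copies in the genome, the recurrent 14 bases, the rule applied to oxBS, the bins of loss, level and coverage, and the removal of gene models were added after seeing the data. Named were the 10 loci with the most steep-loss CpGs, the 10 CpGs with the largest oxBS loss at a coverage of 20 or more, the 10 genes with the most in promoters (ties in loci and promoters taken by the largest mean oxBS loss, which uses the values tested), up to 20 listed genes by number, and up to 5 CpGs with an oxBS rise. The CpGs with the steepest BS loss, *Lifr*, *Stat3* and *Dlk1* fall outside this and were named after their values were seen. Sequences are from mm9. The spread between replicates, depth and PCR copies limit precision.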

Additional observations from a re-analysis of the deposited data

Results flagged for a closer look

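The BS and oxBS libraries went opposite ways at 10 of the 6180 steep-loss CpGs with an oxBS coverage of at least 10, where both shTet3 values were below both shScr values in BS and above them in oxBS. The difference between the 2 kinds of library was not tested, and the BS direction was fixed by the choice of CpGs. At 3 more, below that coverage and not tested, the oxBS rise was 12.0 to 17.2 percentage points. Among the 10, the largest oxBS rise was 18.8 percentage points in *Klf3*, followed by 17.9 in a coding exon of *Enpp1* (*q* = 0.35), 15.6 in an intron of *Banp* (*q* = 0.26), 14.4 upstream of *Usp29* (*q* = 0.40) and 12.9 upstream of *1700010B08Rik* (*q* = 0.15). None of these 5 passed the oxBS test. The other CpGs listed within 100 bases had mean oxBS differences of −2.32 at *Klf3*, −15.3 at *Enpp1*, −4.95 at *Banp* and −7.85 near *1700010B08Rik*, and none lay that close to the CpG upstream of *Usp29*.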

How the results depend on the processing

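The share of steep-loss CpGs called in oxBS fell to 0 with the F test that includes overdispersion (531 CpGs at an unadjusted p under 0.05 with a loss over 10 points) and to 0 with limma (2222 CpGs). The unadjusted counts have no background from other CpGs. With both tests 0% of all CpGs tested were called, and the 10 CpGs named for the largest oxBS loss were no longer called. Leaving out each replicate moved the share called from 18.4% (without shScr replicate 2) to 60.3% (without shScr replicate 1). The share of all CpGs tested moved too, being 5.90% and 17.5% in these settings. The median oxBS difference moved from −15.3 to −29.9 without changing its sign. Replicate numbers of shScr and shTet3 marked nothing shared in the labels, and the replicate differences of the 2 groups had a correlation of r = −0.0361 across CpGs. With the replicate block 52.8% were called (14.5% of all CpGs tested), and the median difference was −14.3 within replicate number 1 and −30.4 within number 2. With a BS loss of 25 points in the rule, promoters held 5.06%, CpG islands 5.53% and genes 53.0%, and with 45 points promoters held 2.71% and genes 43.0%. Wider promoters (−2 kb to +1 kb) held 6.32% (11.3% of the others), CpG islands of 200-base windows 29.5% (38.8%) and all annotated genes 51.0% (64.2%). For 38 pairs of a result and a setting the value moved by less than a limit. The limit was the replicate spread, the 95% interval of the value or, for counts and shares called, 1.5 times. These 38 include the 60.3%, −29.9, −15.3 and 52.8% given above. The share of repeats was not run, because the genome used marks none. Depth limits a single CpG: at 32 calls, the 95% interval of a 50% level spans 33.6% to 66.4%.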
